A study of Homo sapiens with 16 samples.

Results

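U87-R, a temozolomide-resistant derivative of the U87 MG human glioma line, was compared with and without STM2457, an inhibitor of the RNA methyltransferase METTL3, by m6A-eCLIP. The comparison took every m6A-eCLIP library of U87-R, which gave 3 libraries labelled as DMSO control and 2 labelled as treated with 50 µM STM2457 for 96 hours, 5 of the 16 samples of the series and 5 of the 8 with a list of called bases. Both groups grew in medium with 50 µM temozolomide, an alkylating drug, so the drug is common to all values below. U87-R is 1 derivative line, and the labels do not say that replicates were separate cultures, so every p-value reflects only the scatter among these libraries, which may be technical. In the assay polyA RNA is fragmented, bound and crosslinked to an antibody against N6-methyladenosine (m6A), and the bound base is read from the sequence.

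METTL3 and METTL14 form the core of the complex that writes most m6A in messenger RNA, mainly inside long exons and near stop codons. The methyl group lies on an adenosine, most often inside the letters GGAC or close relatives of them. Antibodies against m6A also bind a related base, m6Am, which stands next to the cap at the first transcribed adenosine and is written by another enzyme, PCIF1. METTL16, a separate methyltransferase, methylates hairpins of the MAT2A messenger RNA, which encodes the enzyme that makes the methyl donor S-adenosylmethionine.

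Every library lists the bases its caller accepted, each with a score. How the score is computed was not stated, unlisted bases carry no value, and no read count or coverage was used, so depth is unknown. Input RNA was not analysed here: fewer methylated molecules, less of an RNA and fewer cells that make it cannot be told apart in any value below. All 8 markers of a mesenchymal glioma line, such as VIM, CD44, TNC and S100A6, had called bases, with summed scores per library of 8532 to 9212 with DMSO and 4258 to 4283 with STM2457. Most of the DMSO sum was from TNC, whose mean was 5669 with DMSO and 2025 with STM2457. In the gene test described below, 3 of the 8 were lower and 1, FN1, was higher. Among markers of other cell types, 1 of 6 for astrocytes (SLC1A3, with GFAP and AQP4 at 0), 4 of 6 for neurons, 2 of 6 for oligodendrocytes, 1 of 6 for immune cells, 1 of 4 for endothelium and 0 of 4 for epithelium had a called base. The neuron list summed to 158 to 224 with DMSO and 313 to 366 with STM2457, most of it from TUBB3, and the oligodendrocyte list to 92.7 to 246 and 25.4 to 29.3, nearly all from OLIG2. The part of these cell types in the results was not tested.

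Sequences around called bases near annotated transcription starts are shown first, because the bases that remained and the bases that vanished with STM2457 differed in the letters around them. Each run is 21 bases of the transcribed strand, 5′ to 3′, from RefSeq promoters on GRCh38.p14, with the called base in capitals. In the first 4 the base was scored in all 5 libraries and lies at an annotated start or 5 nt into the RNA. All 4 were picked with an A as called base, though of 5004 kept bases within 50 nt of a start 55.6% were an A, 24.7% a C and 15.9% a T, such as a T in NAMPT and a C in GTPBP2. PPP1R12C encodes a regulatory subunit of myosin phosphatase, S100A6 a calcium-binding protein, WDR26 a ubiquitin ligase subunit, and UBALD2 a protein with a ubiquitin-associated domain.
PPP1R12C, chr19:55117627-55117647, minus strand: ggccagcggcAgttcccggcg
S100A6, chr1:153535981-153536001, minus strand: gacacagcccAtcccctcgac
WDR26, chr1:224434787-224434807, minus strand: cctggactccAttaggcagca
UBALD2, chr17:76265343-76265363, plus strand: gaaccacaacAttcgccgggc

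At the PPP1R12C start the scores were 141, 136 and 139 with DMSO and 183 and 183 with STM2457. At the S100A6 start they were 118, 139 and 127 with DMSO and 140 and 141 with STM2457. At WDR26 they were 111, 143 and 125, then 152 and 160, and at UBALD2 146, 142 and 148, then 207 and 227. In each of these 4 places every STM2457 library lay above every DMSO library.

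In the next 4 the base was scored in every DMSO library and called in neither STM2457 library. UBE2M encodes a NEDD8-conjugating enzyme, SNX33 a sorting nexin, LRIG1 a negative regulator of receptor tyrosine kinases, and DYRK1A a protein kinase. The UBE2M base lies 32 nt into the RNA, and the other 3 lie 62, 196 and 162 nt before the nearest annotated start.
UBE2M, chr19:58558569-58558589, minus strand: ccggagccggActacgggagc
SNX33, chr15:75648935-75648955, plus strand: gggagactggAcagcatctgt
LRIG1, chr3:66500240-66500260, minus strand: gactcgctggActgcggtggg
DYRK1A, chr21:37367385-37367405, plus strand: gggcccggggActgcggtatt

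The scores with DMSO were 70.5, 78.7 and 45.5 at UBE2M and 82.2, 81.9 and 38.4 at SNX33. They were 73.0, 59.0 and 60.4 at LRIG1 and 94.1, 31.1 and 67.2 at DYRK1A. In all 4 runs the called base is the A of GGAC. Other vanished bases lacked these letters, as at TAGLN2, LOX, PSMB5 and TXNDC12, so the 4 runs show one kind of vanished base and not all of them.

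GGAC was counted, on the transcribed strand only, wherever a called base was its A. It overlaps the longer GGACT by design. Of 5004 bases kept with STM2457 at most 50 nt from a start, 12 (0.240%) were the A of GGAC, against 0.413% of all positions in RefSeq windows from 50 nt before to 39 nt after a start. Of 52 bases absent with STM2457 in the same stretch, 9 (17.3%) were. Between 51 and 240 nt before a start, GGAC held 6 of 144 kept bases (4.17%) and 17 of 28 absent bases (60.7%). Over every base called in that stretch, the GGAC share was 8.82%, 9.30% and 9.29% in the DMSO libraries and 2.04% and 2.61% in the STM2457 libraries. Kept here means a score of at least 10 in all 5 libraries, and absent means at least 10 in all 3 DMSO libraries and no call in either STM2457 library. Letters were counted in RefSeq promoter windows, so these numbers of bases differ from those counted by gene below. By gene, 4911 kept bases lay within 50 nt of a start and 1393 at the start itself.

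Kept bases at the start itself had other letters. Of 1162 such bases, 97.4% were an A and 77.5% an A after a C, where 44.4% of all 35116 annotated starts are an A and 29.6% an A after a C. Bases called in both STM2457 libraries and in no DMSO library also lay there, and of 294 of them 95.2% were an A. A match of letters describes these windows and does not show which enzyme acted on a base. Gene bodies were not searched, since only promoter windows were at hand.

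The number of called bases fell in total and rose next to annotated starts. The DMSO libraries held 192697, 149477 and 170655 called bases and the STM2457 libraries 105900 and 110875, a ratio of means of 0.634. Within 50 nt of an annotated 5′ end of a gene there were 15460, 14526 and 15018 with DMSO and 20212 and 20073 with STM2457, a ratio of 1.34. Farther than 50 nt there were 157885, 120514 and 139035 with DMSO and 70724 and 75131 with STM2457, a ratio of 0.524. The groups did not overlap in any of the 3 counts, and each exact two-sided permutation test gave p = 0.1, the smallest that 3 libraries against 2 allow. Called bases in no gene of known strand numbered 17363, 12845 and 14855 with DMSO and 13925 and 14633 with STM2457, and there the groups overlapped (exact two-sided permutation p = 0.7).

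**Figure D1:**
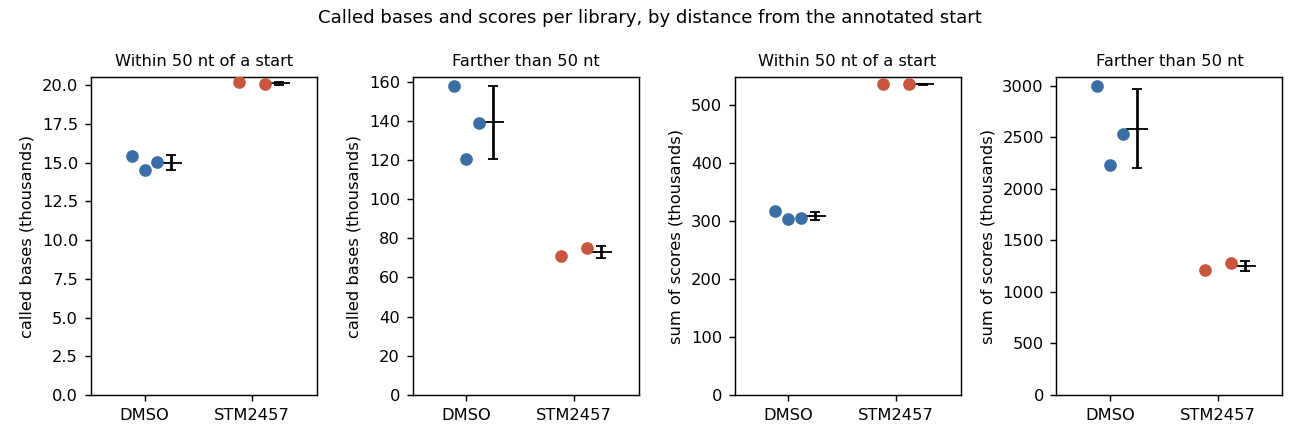
Called bases (left pair of panels) and summed scores (right pair) per library, within 50 nt of an annotated start and farther away. Points are libraries, and bars beside them give the mean and SD over 3 DMSO or 2 STM2457 libraries; the STM2457 points lie above the DMSO points near starts and below them elsewhere.

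Scores moved the same way as counts. The sum of scores within 50 nt of a start was 316921, 303401 and 305464 with DMSO and 536638 and 535895 with STM2457, a ratio of 1.74, and farther away the ratio was 0.483. The share of the total score lying within 50 nt was 9.57%, 12.0% and 10.8% with DMSO and 30.7% and 29.5% with STM2457. Among positions that all 5 libraries called, the median within 50 nt was 26.9 ± 0.849 (SD, n = 3) with DMSO and 45.8 ± 0.402 (SD, n = 2) with STM2457, and farther away it was 40.8 ± 6.52 and 24.5 ± 1.11. Pooled over both regions, the median at such bases was 35.4 ± 4.53 and 29.0 ± 0.935, with no overlap between the groups (exact two-sided permutation p = 0.2). The share of assigned bases within 500 nt of the 3′ end of a gene was 8.59% ± 0.231 with DMSO and 5.69% ± 0.182 with STM2457 (SD, n = 3 and 2, no overlap, exact permutation p = 0.1). Genes with a called base within 50 nt of a start numbered 4574 ± 83.6 and 6398 ± 91.2, while genes with any called base numbered 10961 ± 204 and 10713 ± 17.0 (SD, n = 3 and 2).

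Bases that were firmly called without the inhibitor were followed one by one. Of 46486 positions scored 10 or more in each of the 3 DMSO libraries, 46.5% were kept and 26.6% were absent, and the rest were scored under 10 or called in 1 STM2457 library. Within 50 nt of a start 92.5% of 5308 bases were kept and 1.06% were absent, with a median ratio of the STM2457 to the DMSO score of 1.52. Farther than 50 nt 38.3% of 37879 bases were kept and 31.3% were absent, with a median ratio of 0.187. These shares describe positions in libraries that share cells and depth, and no p was computed over bases. The bases were chosen by their DMSO scores alone, so ordinary differences between libraries add to the share absent and lower the ratio. No like share within 1 group was computed.

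**Figure D2:**
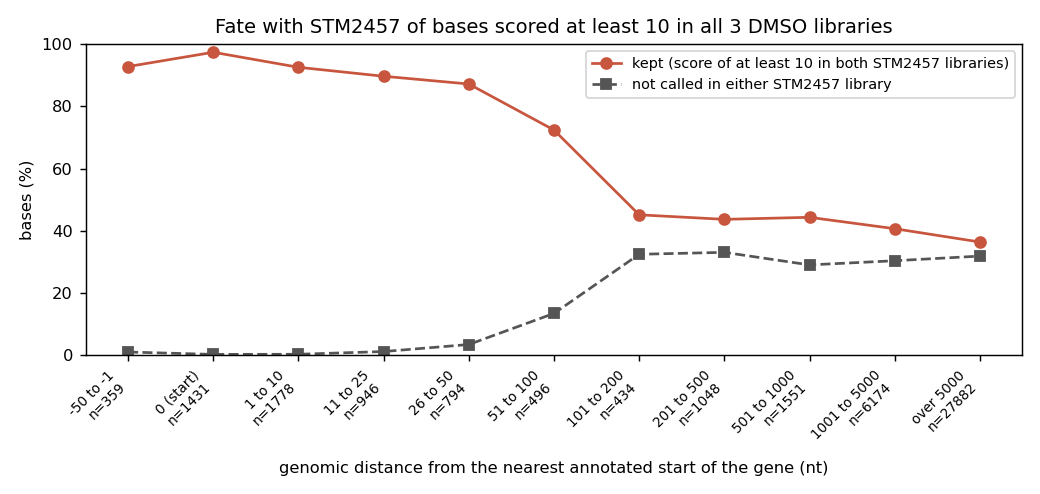
Percent of bases kept and percent absent with STM2457, by genomic distance from the nearest annotated start of the gene (nt), for bases scored at least 10 in all 3 DMSO libraries; n under each bin is the number of bases. The share kept is 97.3% at the start itself, 72.4% from 51 to 100 nt and 36.4% beyond 5000 nt.

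The step lay within about 100 to 200 nt of genomic distance. The share kept was 97.3% at the start itself, 92.5% from 1 to 10 nt, 87.2% from 26 to 50 nt, 72.4% from 51 to 100 nt and 45.2% from 101 to 200 nt, and beyond 5000 nt it was 36.4%. Distances are genomic, so a base in a second exon counts as far. Of bases farther than 50 nt from a start, those 100 to 499 nt from the 3′ end were kept least often, 32.7% of 3564, with 39.9% absent.

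The score without the inhibitor set apart the bases far from starts more than those near them. In 4 bins of equal size by mean DMSO score, from lowest to highest, 17.1%, 24.9%, 40.5% and 70.6% of far bases were kept. At the same score bounds 82.7%, 94.6%, 96.4% and nearly all of the near bases were kept. At every score level the near bases were kept more often. The bins were cut on the DMSO scores that are also compared, and a low score drops under 10 more easily. The rise across bins is therefore partly fixed in advance and does not measure the size of a loss. Bases in no gene of known strand were kept in 70.8% of 2822 cases, and long noncoding RNA genes kept 40.1% of 780 far bases against 38.3% of 37099 in protein-coding genes.

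Bases of 1 gene often had different fates, though most absent far bases had no kept base within 100 nt. Many called bases also differed between libraries of 1 group. Of far bases called in either library of a pair, 38.5% to 43.0% were shared within a group and 22.4% to 25.1% between groups. Of 2753 genes with at least 5 followed bases farther than 50 nt from a start, 2258 (82.0%) held both a kept and an absent base, 27 kept every base and 53 had every base absent. Over all followed far bases 38.3% were kept and 31.3% absent, so many genes with several bases would hold both. Whether 82.0% departs from that was not tested. Of 11872 absent far bases, 14.1% had a kept base within 30 nt on the same strand and 5.80% within 10 nt. Bases called with STM2457 in both libraries and with DMSO in none numbered 10345, of which 27.5% of those in a gene lay within 50 nt of a start. Bases called in all 3 DMSO libraries and in no STM2457 library numbered 30673, of which 1.00% did.

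Each base was also tested with limma on log2(score + 1), taking a base that was not listed as 0. Of 172207 bases called in at least 2 libraries, 31789 were lower with STM2457 (18.5%) and 11684 higher (6.78%) at a Benjamini-Hochberg adjusted p under 0.05. A base called in 1 group alone passed this filter only where it was high and had to differ, which holds for 21392 of the lower and 7201 of the higher bases. Of 93137 bases called in both groups 10397 were lower and 4483 higher. Of these, within 50 nt of a start 72 of 16553 were lower and 2062 higher, and farther away 9897 of 65324 were lower and 1622 higher. With the replicate number as a block, which leaves 1 residual degree of freedom, limma called 0 bases, and 54815 had an unadjusted p under 0.05.

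The largest falls of mean score at single bases were in TNC, JUN, DDIT4 and ITGA5. At chr9:115086127-115086127 in TNC, which encodes the matrix protein tenascin C, the scores were 182, 200 and 179 with DMSO and the base was called in neither STM2457 library. Yet 17 nt away in TNC a base scored 181, 199 and 178 with DMSO was still called with STM2457, at 111 and 109. In JUN, an AP-1 transcription factor, the base at chr1:58781773-58781773 had 183, 180 and 165 with DMSO and no call with STM2457, and the nearest kept base lay 54 nt away. In DDIT4, a stress-induced brake on mTORC1, a base at 167, 182 and 167 vanished while one 8 nt away went from 181, 200 and 184 to 131 and 138. In the integrin subunit ITGA5 a base at 166, 175 and 172 vanished and the base 2 nt away went from 165, 174 and 171 to 74.0 and 71.5. These falls are given as descriptions, since the bases passed the filter through DMSO alone.

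The largest rises at single bases lay away from the nearest start in JAK1, SART1 and 2 protocadherins, and all were already called with DMSO. At chr1:64966415-64966415 in the cytokine receptor kinase JAK1, 134 nt from a start, scores were 157, 154 and 137 with DMSO and 425 and 357 with STM2457 (limma log2 change 1.38 ± 0.10, SE; adjusted p = 0.00375). In SART1, a tri-snRNP splicing factor, the base at chr11:65967703-65967703 had 170, 198 and 175, then 435 and 407 (log2 change 1.22 ± 0.08, SE; limma adjusted p = 0.00360). In PCDHB13 scores rose from 124, 129 and 142 to 314 and 270 (limma adjusted p = 0.00430). PCDHB8 went from 275, 170 and 148 to 371 and 512 (limma adjusted p = 0.0492), a call lost with no filter, without DMSO library 2 or 3 and without either STM2457 library. PCDHB8 and PCDHB13 encode neural cell adhesion proteins of 1 gene cluster with closely alike sequences, so reads could be shared between its members.

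Scores were then summed per gene. Where 2 or more libraries reached a sum of 10, a gene was tested with limma on log2(sum + 1). Of these 10215 genes, 3738 were lower in treated cells (36.6%) and 683 were higher (6.69%) after Benjamini-Hochberg adjustment at 0.05, and 5464 fell below 0.05 unadjusted. The median log2 change of all tested genes was -0.68. The direction split rests on the scaling: with each library centred on its median 2359 genes were lower and 1739 higher, and with sums scaled to library totals 2038 were lower and 2000 higher, which moved the median to -0.12 and 0.00066. Since true amounts of RNA are not known here, unscaled values are given first, and a list is read against the median of all genes and their 36.6% lower and 6.69% higher. Of the called genes, 570 lower and 246 higher passed the filter on low sums through 1 group alone and had to differ, and of 9097 that passed in both groups 3168 were lower and 437 higher.

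Split by region, unscaled sums had more lower than higher calls far from a start and more higher than lower calls near one. From bases farther than 50 nt alone, 5073 of 9312 genes were lower (54.5%) and 476 higher (5.11%), with a median of -1.27. From bases within 50 nt alone, 44 of 5047 were lower (0.872%) and 1390 higher (27.5%), with a median of 1.07. The near-start counts depend on the setting: 343 were lower and 521 higher when centred on the median, 29 and 2987 when scaled to library totals, and 585 were higher without STM2457 library 2 and 596 without STM2457 library 1. The far counts were 1815 lower and 1892 higher when centred, and 3243 and 973 when scaled to library totals. Of the near-start higher genes 581 passed the filter through STM2457 alone, and among the 4303 that passed in both groups 23 were lower and 809 higher. Far from the start 1155 of the lower genes passed through DMSO alone, and of 7541 that passed in both groups 3918 were lower and 211 higher. Of 4216 genes tested in both regions, 701 were higher near the start and lower elsewhere, 89 were higher in both and 29 lower in both. Another 1803 were lower elsewhere with no call near the start, and 1027 had no call in either region. The counts over both regions were not split by filter. They include genes that passed in 1 group alone and had to differ, such as YTHDF2 near its start. Of genes called lower over the whole sum, 226 were listed at 0 in both STM2457 libraries, and of those called higher 126 were listed at 0 in all 3 DMSO libraries. Among the called-higher genes 57.2% had over 50% of their STM2457 score within 50 nt of a start, and among the called-lower genes with a score 15.2% did.

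**Figure D3:**
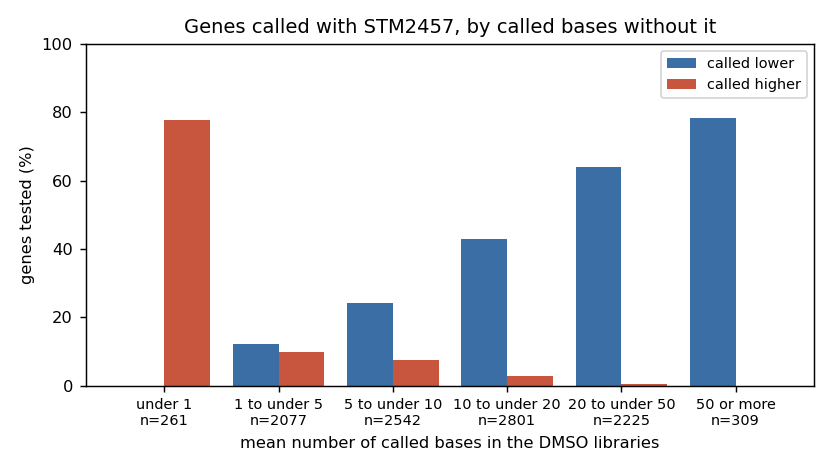
Percent of tested genes called lower and called higher with STM2457, by their mean number of called bases in the DMSO libraries; n is the number of genes. Lower calls run from 12.0% at 1 to under 5 bases to 78.3% at 50 or more, and the leftmost class passed the filter through the STM2457 libraries.

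Genes with many called bases were called lower most often. Their median log2 change differed less: -0.84 at 10 to under 20 bases, -0.94 at 20 to under 50 and -0.98 at 50 or more. It was 0.44 at 1 to under 5 bases and -0.43 at 5 to under 10. The classes were formed from the DMSO libraries that are also compared, so these shares do not measure the size of a loss. With 50 or more called bases per DMSO library 78.3% of 309 genes were lower and 0 higher, and with 1 to under 5 bases 12.0% of 2077 were lower and 9.73% higher. The 261 genes with under 1 base passed the filter through the STM2457 libraries and had to differ, so their 77.8% of higher calls is no finding. Protein-coding and long noncoding genes were lower in 37.0% of 9624 and 29.4% of 591 cases.

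Among the members of the writer complex 7 of 11 tested genes were lower and 0 higher, with a median log2 change of -1.09 against -0.68 for all genes, and 2 lower and 1 higher (median -0.40) when scaled to library totals. METTL3, the target of the inhibitor, had sums of 242, 113 and 207 with DMSO and 134 and 161 with STM2457, and the groups overlapped (log2 change -0.28 ± 0.37, SE; limma adjusted p = 0.557). Within METTL3 the near-start sum was 71.4, 44.0 and 92.2 with DMSO and 134 and 115 with STM2457, and the remaining sum 171, 69.0 and 114, then 0 and 45.4; neither region passed the test. METTL14, its partner, fell from 237, 150 and 192 to 70.5 and 78.0 (log2 change -1.34 ± 0.29, SE; limma adjusted p = 0.0131). WTAP, the adaptor that holds the complex in nuclear speckles, fell from 1211, 866 and 1062 to 440 and 424 (log2 change -1.26 ± 0.17, SE; limma adjusted p = 0.00319). RBM15B, which guides the complex to RNA, fell from a mean of 1787 to 952. METTL16 had 452, 336 and 381 with DMSO and 375 and 248 with STM2457 (limma adjusted p = 0.273). The METTL14 call was lost at a log2 change of -1.33, -1.27 and -1.41 when DMSO library 3, STM2457 library 1 and STM2457 library 2 were left out in turn. The RBM15B call was lost at a log2 change of -0.72 without STM2457 library 1.

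The METTL14 and RBM15B calls were lost when sums were scaled to library totals (limma adjusted p = 0.0562 for METTL14).

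Of 13 readers and erasers of m6A tested, 9 were lower and 1 higher, with a median of -0.78, and 5 lower and 2 higher (median -0.09) when scaled to library totals. Of these unscaled calls, 1 lower passed the filter through 1 group alone. FTO, an m6A demethylase, had 219, 107 and 167 with DMSO and was listed at 0 in both STM2457 libraries. The other demethylase, ALKBH5, fell from 280, 372 and 309 to 80.1 and 49.3 (log2 change -2.32 ± 0.29, SE; limma adjusted p = 0.00258). YTHDF2, the reader that leads RNAs to decay, had 1561, 1117 and 1332 with DMSO and 843 and 706 with STM2457. Its near-start bases went the other way, from 0 in every DMSO library to 46.1 and 30.9. The whole-gene call of YTHDF2 was lost under scaling to library totals (log2 change -0.09). HNRNPA2B1, a nuclear RNA-binding protein described as a reader, rose from 435, 514 and 435 to 613 and 682 (log2 change 0.49 ± 0.15, SE; limma adjusted p = 0.0405). The YTHDF2 call was lost at a log2 change of -0.77, -0.91 and -0.65 when DMSO library 3, STM2457 library 1 and STM2457 library 2 were left out in turn. The HNRNPA2B1 call was lost at a log2 change of 0.45, 0.45, 0.57 and 0.42 when DMSO library 1, DMSO library 3, STM2457 library 1 and STM2457 library 2 were left out in turn.

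Methionine and polyamine metabolism had 3 of 13 genes lower and 5 higher, with a median of 0.38, and 3 lower and 8 higher (median 1.07) when scaled to library totals. The filter was passed through 1 group alone by 1 lower and 3 higher calls. MAT2A rose from 527, 386 and 554 to 885 and 904 (log2 change 0.89 ± 0.19, SE; limma adjusted p = 0.0126), with every STM2457 library above every DMSO library and no called base within 50 nt of a start in any. The number of called bases in MAT2A went from 22, 15 and 23 to 13 and 17, so the rise was one of score per base, and a fit to the number of bases gave -0.38. At its highest base, 264 nt from the 3′ end, scores were 90.8, 96.8 and 105 with DMSO and 146 and 134 with STM2457. AMD1, which makes the aminopropyl donor for polyamines, went from 321, 288 and 315 to 0 and 0.888. MTR, methionine synthase, fell from a mean of 383 to 94.8, and SMS, spermine synthase, rose from 229 to 386. The other 3 higher members, AHCYL1, AZIN1 and SAT1, were listed at or near 0 with DMSO. The MAT2A call was lost at a log2 change of 0.90 and 0.87 when STM2457 library 1 and STM2457 library 2 were left out in turn. The SMS call was lost at a log2 change of 0.62, 0.79, 0.98 and 0.51 when DMSO library 1, DMSO library 3, STM2457 library 1 and STM2457 library 2 were left out in turn.

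Immediate early and AP-1 genes, which are switched on within minutes of growth signals, were lower in 19 of 28 cases and higher in 0, with a median of -1.34, and 15 lower and 1 higher (median -0.65) when scaled to library totals. Among the unscaled calls 2 lower passed through 1 group alone. JUN fell from 3992, 4009 and 3595 to 1596 and 1828 (log2 change -1.18 ± 0.13, SE; limma adjusted p = 0.00192). Its near-start sum was 140, 142 and 136 with DMSO and 169 and 187 with STM2457. IER3, an early survival gene, fell from 1974, 2156 and 1955 to 538 and 513. MYC, the growth transcription factor, fell from a mean of 1443 to 607.

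Feedback inhibitors of MAP kinase signalling were lower in 11 of 14 cases and higher in 0, with a median of -1.31, and 8 lower and 0 higher (median -0.62) when scaled to library totals. In the unscaled sums 1 lower passed the filter through 1 group alone. DUSP1, a phosphatase that switches off MAP kinases, fell from 1575, 1776 and 1698 to 531 and 507 (log2 change -1.69 ± 0.12, SE; limma adjusted p = 0.00142). DUSP5, an ERK phosphatase of the same family, fell from 1711, 957 and 1496 to 424 and 427. Both groups of each gene stood clear of each other. The DUSP5 call was lost at a log2 change of -1.65 and -1.67 when STM2457 library 1 and STM2457 library 2 were left out in turn.

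Receptor kinase, PI3K and MAPK genes were lower in 16 of 28 cases and higher in 1, with a median of -0.96, and 7 lower and 4 higher (median -0.28) when scaled to library totals. Of these unscaled calls, 1 higher passed the filter through 1 group alone. EGFR, the receptor often amplified in glioblastoma, fell from 2006, 1513 and 1522 to 590 and 758 (log2 change -1.32 ± 0.19, SE; limma adjusted p = 0.00350). MET, the receptor for hepatocyte growth factor, fell from 1336, 1054 and 1076 to 340 and 432. TGFA, a ligand of EGFR, had 1 of the lowest ratios among genes with a DMSO sum of at least 500, from 595, 702 and 596 to 40.2 and 44.9 (log2 change -3.86 ± 0.19, SE; limma adjusted p = 0.00142). The single higher gene, ERBB2, which passed the filter through STM2457 alone, had sums of only 3.03 with DMSO and 30.3 with STM2457 on average. The EGFR call was lost at a log2 change of -1.13 without STM2457 library 1.

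Glioma stem and neural progenitor factors were lower in 10 of 18 tested genes and higher in 0, with a median of -1.29, and 8 lower and 1 higher (median -0.64) when scaled to library totals. The filter was passed through 1 group alone by 2 lower calls. LIF, a cytokine that holds progenitors undifferentiated, fell from 3027, 2714 and 2614 to 474 and 494 (log2 change -2.52 ± 0.12, SE; limma adjusted p = 0.00142). NOTCH2, a receptor of the Notch pathway, fell from 3107, 2822 and 3030 to 1236 and 1368. OLIG2 fell from 246, 92.7 and 123 to 28.8 and 25.4. No called base was given to SOX2. The OLIG2 call was lost at a log2 change of -2.43 and -2.25 when STM2457 library 1 and STM2457 library 2 were left out in turn.

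Mesenchymal and matrix genes were lower in 17 of 36 cases and higher in 4, with a median of -0.84, and 10 lower and 8 higher (median -0.15) when scaled to library totals. Among the unscaled calls 2 lower passed through 1 group alone. TNC fell from 5553, 5978 and 5476 to 1922 and 2128 (log2 change -1.49 ± 0.12, SE; limma adjusted p = 0.00143). COL6A3, a chain of collagen VI, fell from 6687, 6144 and 6228 to 3461 and 3189, a call that ended under scaling to library totals. LRRC15, a membrane protein of matrix-making cells, had the largest fall of mean sum among the genes eligible to be named for it, from 4609, 5728 and 4808 to 1088 and 1341 (log2 change -2.06 ± 0.16, SE; limma adjusted p = 0.00142). LRRC15 is not a member of this list. CD44, the hyaluronan receptor, fell from 1255, 1503 and 1232 to 520 and 455. In CD44 the near-start sum was 296, 412 and 349 with DMSO and 306 and 286 with STM2457, and the rest of the gene fell from 959, 1091 and 883 to 214 and 169. The COL6A3 call was lost at a log2 change of -0.99 and -0.88 when STM2457 library 1 and STM2457 library 2 were left out in turn.

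Fibronectin went the other way in this list. FN1 rose from 70.2, 35.7 and 38.4 to 331 and 234 (log2 change 2.57 ± 0.42, SE; limma adjusted p = 0.00506). TIMP1, an inhibitor of matrix metalloproteases, rose from 451, 479 and 436 to 687 and 653 (log2 change 0.56 ± 0.13, SE; limma adjusted p = 0.0175). SPARC and TIMP3 were the other 2 members called higher. The FN1 call was lost at a log2 change of 2.32 and 2.83 when STM2457 library 1 and STM2457 library 2 were left out in turn. The TIMP1 call was lost at a log2 change of 0.53, 0.52 and 0.59 when DMSO library 3, STM2457 library 1 and STM2457 library 2 were left out in turn.

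TGF-beta, WNT and Hippo signalling had 20 of 33 genes lower and 0 higher, with a median of -0.94, and 9 lower and 3 higher (median -0.25) when scaled to library totals. In the unscaled sums 3 lower passed the filter through 1 group alone. WNT5A, a noncanonical WNT ligand, fell from 3578, 3155 and 3216 to 814 and 890 (log2 change -1.96 ± 0.12, SE; limma adjusted p = 0.00142). Its near-start sum also fell, from a mean of 191 to 110, 1 of 44 genes lower there. Chromatin regulators were lower in 27 of 40 cases and higher in 3, with a median of -1.05, and 18 lower and 6 higher (median -0.36) when scaled to library totals. Of these unscaled calls, 1 lower and 1 higher passed the filter through 1 group alone. ASXL1 fell from 2502, 2700 and 2526 to 1123 and 1359, and ARID1B, a subunit of the BAF remodelling complex, from 2740, 1829 and 2154 to 774 and 1047. The ASXL1 call ended under scaling to library totals. The ARID1B call was lost at a log2 change of -1.08 without STM2457 library 1.

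In the cell cycle list 16 of 28 genes were lower and 3 higher, with a median of -1.21, and 8 lower and 4 higher (median -0.53) when scaled to library totals. The filter was passed through 1 group alone by 2 lower and 1 higher calls. Near the start 9 of 19 tested were higher, against 27.5% of all genes tested there. Among all genes that passed the near-start filter in both groups 809 of 4303 were higher. How many of the 9 passed it through STM2457 alone was not counted. FOXM1, a transcription factor of mitotic genes, had near-start sums of 23.6, 41.0 and 27.9 with DMSO and 70.0 and 94.1 with STM2457. The rest of FOXM1 fell from 802, 832 and 789 to 44.0 and 62.0 (log2 change -3.93 ± 0.21, SE; limma adjusted p = 0.00102). AURKB, a mitotic kinase, was called near its start only and rose from 68.2, 106 and 61.4 to 148 and 224 (limma adjusted p = 0.0379). MKI67, the proliferation marker, fell from 1872, 3263 and 1760 to 887 and 730, a call lost under scaling to library totals. The AURKB call was lost at a log2 change of 1.17, 1.09, 1.54 and 0.95 when DMSO library 1, DMSO library 3, STM2457 library 1 and STM2457 library 2 were left out in turn. The MKI67 call was lost at a log2 change of -1.59 and -1.31 when STM2457 library 1 and STM2457 library 2 were left out in turn.

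DNA repair genes were lower in 9 of 31 cases and higher in 1, with a median of -0.48, and 3 lower and 7 higher (median 0.20) when scaled to library totals. Among the unscaled calls 1 lower and 1 higher passed through 1 group alone. MGMT, the enzyme that removes the methyl lesions temozolomide leaves on guanine, had 158, 101 and 107 with DMSO from 11, 8 and 10 called bases, and 0.238 and 0.268 with STM2457 from 1 base each. TP53BP1, a double-strand break mediator, fell from 646, 416 and 538 to 51.5 and 50.6 (log2 change -3.34 ± 0.24, SE; limma adjusted p = 0.00142). MSH6, of the mismatch repair complex, fell from 1227, 1150 and 1176 to 678 and 724, which was lost under scaling to library totals (log2 change -0.07).

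In the endoplasmic reticulum and integrated stress list 16 of 26 were lower and 0 higher, with a median of -1.07, and 9 lower and 3 higher (median -0.38) when scaled to library totals. DDIT4 fell from 2049, 2097 and 1952 to 817 and 855 (log2 change -1.28 ± 0.11, SE; limma adjusted p = 0.00159). CEBPB, a transcription factor of inflammation and stress, fell from 2440, 2224 and 2489 to 1369 and 1332 while its near-start sum rose from 146, 151 and 162 to 242 and 225 (limma adjusted p = 0.0138). The whole-gene call of CEBPB was lost under scaling to library totals (log2 change -0.13). VEGFA, the angiogenic factor, fell from 4332, 3305 and 4004 to 1174 and 1472. ENO1, a glycolytic enzyme, rose from 585, 509 and 482 to 767 and 763 (limma adjusted p = 0.0245). The hypoxia and glycolysis list as a whole had 10 of 25 lower and 2 higher, with a median of -0.31, and 5 lower and 5 higher (median 0.38) when scaled to library totals. In the unscaled sums 1 lower passed the filter through 1 group alone. The ENO1 call was lost at a log2 change of 0.49, 0.54 and 0.55 when DMSO library 3, STM2457 library 1 and STM2457 library 2 were left out in turn.

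**Figure D4:**
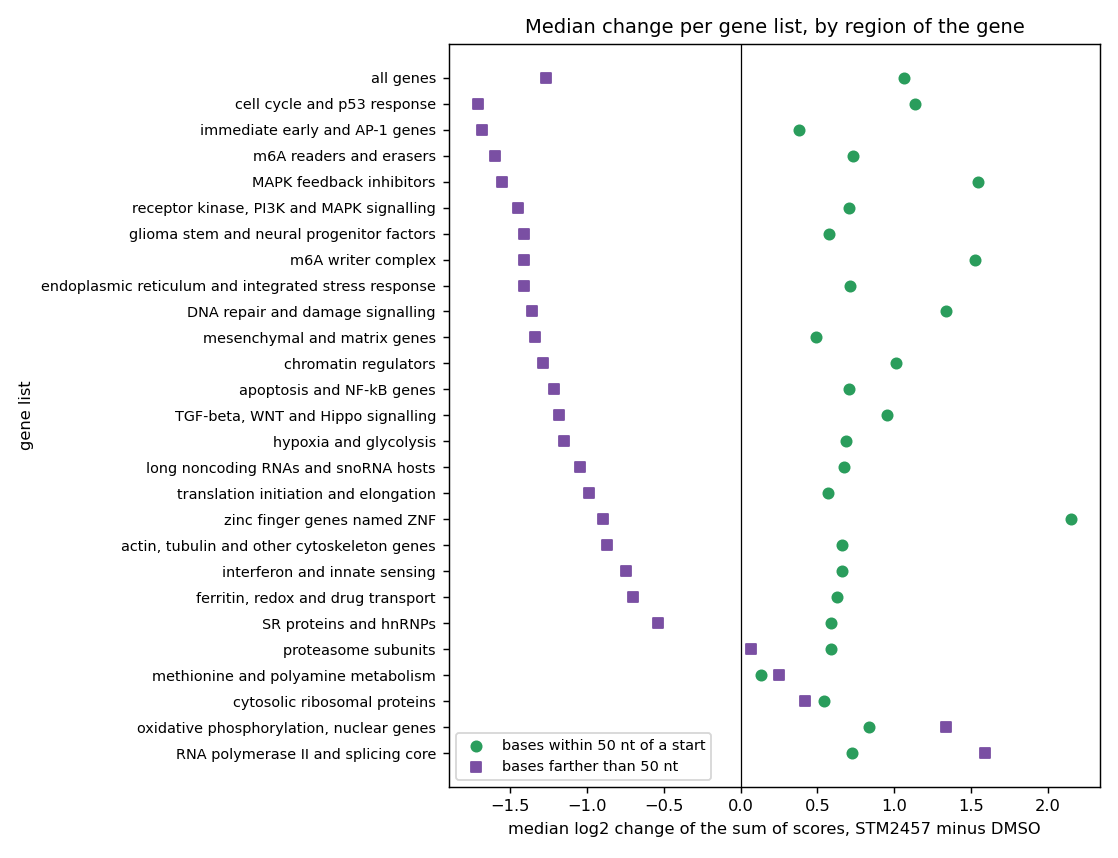
Median log2 change of the sum of scores, STM2457 minus DMSO, per gene list, from bases within 50 nt of a start (circles) and farther away (squares). Circles lie above 0 in every list drawn, and squares lie below 0 except in 5 lists, among them oxidative phosphorylation (1.34) and RNA polymerase II and splicing (1.59). The last 2 values include genes that passed the filter through STM2457 alone, such as ATP5MF and ERH.

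Nuclear genes of oxidative phosphorylation had 0 of 44 tested genes lower and 21 higher, with a median of 0.84, and 0 lower and 35 higher (median 1.53) when scaled to library totals. Of these unscaled calls, 5 higher passed the filter through 1 group alone. These genes had most of their score at their starts: the median share within 50 nt was 99.4% of the DMSO sum, against 0.738% for all genes. COX6A1, a subunit of cytochrome oxidase, rose from 551, 552 and 577 to 770 and 823 (log2 change 0.51 ± 0.12, SE; limma adjusted p = 0.0197). ATP5MF, a subunit of ATP synthase, rose from 269, 295 and 305 to 535 and 542 (log2 change 0.90 ± 0.15, SE; limma adjusted p = 0.00538). Of the 25 tested away from the start, 12 were higher and 4 lower, against 5.11% higher and 54.5% lower of all genes tested there. How many of the 12 passed that filter through STM2457 alone was not counted. ATP5MF did, with far sums of 0 in each DMSO library and 25.5 and 35.2 with STM2457. The COX6A1 call was lost at a log2 change of 0.53, 0.55 and 0.46 when DMSO library 3, STM2457 library 1 and STM2457 library 2 were left out in turn.

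RNA polymerase II and core splicing genes were lower in 6 of 27 cases and higher in 11, with a median of 0.78, and 5 lower and 18 higher (median 1.46) when scaled to library totals. The filter was passed through 1 group alone by 1 lower and 4 higher calls. ERH, a small splicing and RNA surveillance factor, had no called base in any DMSO library and sums of 229 and 240 with STM2457 from 11 and 13 bases, and so passed the filter through STM2457 alone. SNRPD2, a core protein of the spliceosomal snRNPs, rose from 268, 266 and 342 to 545 and 527. SF3B5, of the branch site complex, fell from 806, 702 and 656 to 318 and 334 (log2 change -1.14 ± 0.15, SE; limma adjusted p = 0.00286), and POLR2D, a polymerase subunit, from 619, 513 and 449 to 205 and 197. Those 2 genes had most of their DMSO score away from the start, 604 of 721 in SF3B5 and all of it in POLR2D. The SNRPD2 call was lost at a log2 change of 0.86 and 0.91 when STM2457 library 1 and STM2457 library 2 were left out in turn.

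Ribosomal protein genes were split, with 8 of 35 lower, 7 higher and a median of 0.42, and 8 lower and 13 higher (median 1.11) when scaled to library totals. Among the unscaled calls 5 lower and 6 higher passed through 1 group alone. RPL13 had 635, 261 and 677 with DMSO and was listed at 0 and 0.0702 with STM2457. RPL13A fell from 557, 409 and 538 to 161 and 154, and RPS9 rose from 67.0, 35.7 and 57.7 to 242 and 254. Ribosomal protein genes have many processed copies in the genome, and how reads with several matches were treated was not stated. Proteasome subunits were lower in 3 of 27 cases and higher in 5, with a median of 0.30, and 2 lower and 16 higher (median 0.98) when scaled to library totals. In the unscaled sums 1 lower and 2 higher passed the filter through 1 group alone. PSMB5, its chymotrypsin-like subunit, fell from 500, 695 and 605 to 234 and 235, a call lost under scaling to library totals, while PSMD12, of the regulatory cap, had 229, 91.3 and 149 with DMSO and 9.88 and 3.50 with STM2457. The RPS9 call was lost at a log2 change of 2.27 and 2.20 when STM2457 library 1 and STM2457 library 2 were left out in turn.

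SR proteins and hnRNPs had 6 of 27 genes lower and 4 higher, with a median of -0.03, and 4 lower and 12 higher (median 0.66) when scaled to library totals. HNRNPM, a splicing regulator, rose from 704, 704 and 759 to 965 and 1066 (limma adjusted p = 0.0225), and TRA2B, another, from 299, 370 and 343 to 492 and 541 (limma adjusted p = 0.0248). HNRNPF fell from a mean of 1020 to 409. The cytoskeleton list had 10 of 28 lower and 4 higher, with a median of -0.24, and 5 lower and 9 higher (median 0.44) when scaled to library totals. Of these unscaled calls, 1 higher passed the filter through 1 group alone. MYL6, a myosin light chain, rose from 507, 452 and 313 to 880 and 976. MYH9, the nonmuscle myosin heavy chain, rose from 542, 780 and 557 to 1307 and 1411 (log2 change 1.13 ± 0.19, SE; limma adjusted p = 0.00580). Yet the highest-scored DMSO base of MYH9 went from 49.8, 51.2 and 51.4 to 15.6 and 17.0, so bases within MYH9 moved both ways. The HNRNPM call was lost at a log2 change of 0.53, 0.56 and 0.42 when DMSO library 3, STM2457 library 1 and STM2457 library 2 were left out in turn. The TRA2B call was lost at a log2 change of 0.63, 0.69 and 0.55 when DMSO library 3, STM2457 library 1 and STM2457 library 2 were left out in turn. The MYL6 call was lost at a log2 change of 1.23 and 1.08 when STM2457 library 1 and STM2457 library 2 were left out in turn. The MYH9 call was lost at a log2 change of 1.19 and 1.08 when STM2457 library 1 and STM2457 library 2 were left out in turn.

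In the ferritin, redox and drug transport list 6 of 20 genes were lower and 5 higher, with a median of 0.04, and 3 lower and 8 higher (median 0.73) when scaled to library totals. The filter was passed through 1 group alone by 1 higher call. FTH1, the heavy chain of ferritin, rose from 1051, 1057 and 1138 to 5455 and 5764 (log2 change 2.37 ± 0.11, SE; limma adjusted p = 0.00142). Its called bases went from 20, 16 and 20 to 58 and 61, near the start and beyond it, while the highest-scored DMSO base, 2 nt from the start, had 103, 121 and 111 with DMSO and 116 and 116 with STM2457. The strand of FTH1 was taken from its called bases, and the gene has processed copies elsewhere in the genome. TXNRD1, thioredoxin reductase, rose from 545, 447 and 360 to 884 and 795 (log2 change 0.91 ± 0.20, SE; limma adjusted p = 0.0138). NFE2L2, the transcription factor that drives TXNRD1 and other antioxidant genes, fell from 1270, 948 and 1287 to 391 and 414 (limma adjusted p = 0.00217), with its near-start sum rising from 127, 68.4 and 102 to 213 and 193. The TXNRD1 call was lost at a log2 change of 0.84 and 0.99 when STM2457 library 1 and STM2457 library 2 were left out in turn.

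Other genes with large changes belonged to no list. MACF1, a crosslinker of actin and microtubules, fell from 5435, 4699 and 4597 to 1583 and 1885 (limma adjusted p = 0.00161). AHNAK, a giant scaffold protein, fell from 6128, 6317 and 5779 to 2878 and 3345, and FAT1, an atypical cadherin, from 6261, 5696 and 5297 to 2837 and 3221; both calls ended under scaling to library totals. TENM2, a teneurin adhesion protein, went from 394, 1004 and 364 to 28.5 and 14.5 (limma adjusted p = 0.00219). JAK1 rose from 507, 454 and 436 to 1051 and 888, SART1 from 227, 271 and 261 to 766 and 720, and SCD, a fatty acid desaturase, from 237, 97.7 and 179 to 593 and 558. In JAK1 the few bases within 50 nt of a start went from 21.6, 28.7 and 20.8 to no call. In SCD the highest-scored DMSO base was called in neither STM2457 library, though the gene's sum rose. The AHNAK call was lost at a log2 change of -0.86 without STM2457 library 1. The FAT1 call was lost at a log2 change of -0.83 and -1.02 when STM2457 library 1 and STM2457 library 2 were left out in turn. The SCD call was lost at a log2 change of 1.79 and 1.88 when STM2457 library 1 and STM2457 library 2 were left out in turn.

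**Figure D5:**
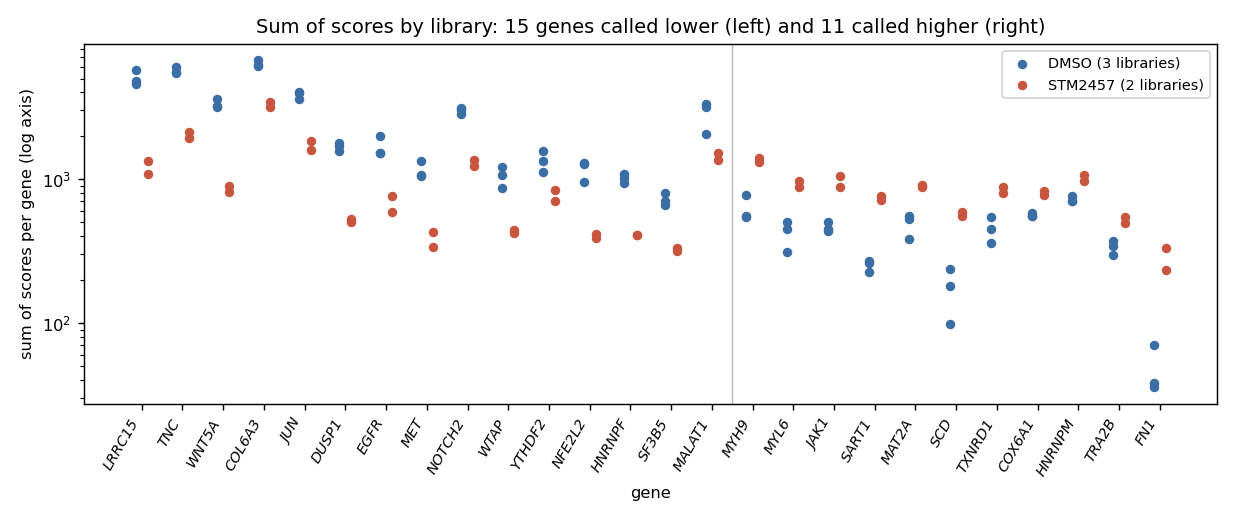
Sum of scores per gene (log axis) in each library for 15 genes called lower and 11 called higher with STM2457, blue for the 3 DMSO and red for the 2 STM2457 libraries. The groups do not overlap in any gene drawn, from LRRC15 (DMSO 4609 to 5728, STM2457 1088 and 1341) to FN1 (35.7 to 70.2, then 331 and 234).

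Of a chosen list of 12 tested noncoding RNAs and hosts of small nucleolar RNAs, 5 were lower and 0 higher, with a median of -0.61, and 3 lower and 3 higher (median 0.08) when scaled to library totals. Among the unscaled calls 2 lower passed through 1 group alone. Over all 591 tested genes annotated as long noncoding, 174 were lower and 32 higher. MALAT1, a nuclear RNA of speckles, fell from 3346, 2052 and 3168 to 1360 and 1520 (log2 change -0.96 ± 0.23, SE; limma adjusted p = 0.0187), which was lost under scaling to library totals (log2 change -0.27). TUG1, which the annotation used here gives as protein-coding and so outside the 591, fell from 3669, 2624 and 3093 to 1469 and 1529 (limma adjusted p = 0.00462). NEAT1, the scaffold of paraspeckles, had 1693, 886 and 1530 with DMSO and 732 and 875 with STM2457, a difference that missed the threshold (limma adjusted p = 0.0892). Genes named ZNF, a large family of zinc finger proteins, were lower in 89 of 311 tested cases (28.6%) and higher in 3, below the 36.6% of all genes that were lower, with a median of -0.73, and 50 lower and 29 higher (median -0.08) when scaled to library totals. Of the 3 higher, ZNF414 passed the filter through STM2457 alone and had to differ. How many of the 89 lower passed it through DMSO alone was not counted. ZNF503 fell from 1958, 2089 and 2030 to 793 and 907. The MALAT1 call was lost at a log2 change of -0.87, -0.88 and -1.04 when DMSO library 3, STM2457 library 1 and STM2457 library 2 were left out in turn. The TUG1 call was lost at a log2 change of -1.02 and -1.08 when STM2457 library 1 and STM2457 library 2 were left out in turn.

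The authors' own lists of reproducible sites and peaks, which join the libraries of a group and carry no replicate error, had the same split by region. For sites and for peaks, the DMSO list joins 3 libraries and the STM2457 list 2, which can affect list sizes and shared parts to an unknown degree. The DMSO list held 35207 sites and the STM2457 list 12791, with 10054 in common at the same base and strand. Of the DMSO list, 28.6% of all sites, 84.0% of the 2381 sites within 50 nt of a start and 24.2% of the 31476 farther sites were on the STM2457 list. Of the STM2457 list, 78.6% of all sites, 52.9% of those within 50 nt and 91.3% of the farther ones were on the DMSO list. Sites within 50 nt made up 7.03% of the assigned DMSO list and 31.2% of the assigned STM2457 list.

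For peaks the authors' lists held 96528 with DMSO, covering 4575155 bases, and 50034 with STM2457, covering 2725474. Of the DMSO peaks 60.4% shared 1 base or more, strand included, with an STM2457 peak, 92.6% of those within 50 nt of an annotated start and 59.2% of the others. Of the STM2457 peaks 57.6% of those within 50 nt of a start and 85.9% of the others overlapped a DMSO peak.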

How the data were processed

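Per the labels, a provider made m6A-eCLIP libraries from polyA RNA. The submitters' processing notes name UMI-tools, cutadapt, STAR and hg38. Versions, callers and normalization were not stated. For each library the authors deposited called bases with a score, the lowest of 4 scores beside it. They also deposited reproducible site and peak lists, each with a fraction of libraries and a combined score.

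Bases were given to RefSeq genes (GRCh38.p14) with the strand of the promoter table, or else of at least 90% of 5 or more called bases, a rule right for 97.1% of 8413 genes of known strand. Of 352176 bases 88.1% were given to 1 gene. Sums of scores per gene on the log2(sum + 1) scale, unscaled between libraries, were tested by limma 3.58.1 under R 4.3.3 (trend on mean level), and per base likewise, after a check on simulated data. Named genes were the 8 largest called falls and rises of mean sum, the 4 lowest and highest ratios at DMSO sums of at least 500, up to 2 called members per list and direction, and METTL3, METTL14, WTAP, METTL16, VIRMA, MAT2A, YTHDF2, ALKBH5, FTO, MGMT, EGFR, SOX2, MYC, MALAT1 and NEAT1. AHCYL1, AZIN1, SAT1, SPARC and TIMP3 were named after their values were seen. Members and lists were chosen with earlier results of these data known. Alternatives were another scaling, pseudocount, filter, set of bases, replicate block and each library left out.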

Additional observations from a re-analysis of the deposited data

How the results depend on the processing

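Depth is unknown, so no counting error can be given, and 2 STM2457 libraries limit every test. Without a filter on low sums the median log2 change of all tested genes was -0.56, with pseudocount 10 it was -0.61, and with the number of called bases in place of scores it was -0.62, with 266 genes higher. With bases within 50 nt of the 5′ end left out it was -1.27. Scaled to library totals it was 0.00066, with 2038 genes lower and 2000 higher, and centred on the median of tested genes -0.12, with 2359 and 1739. Leaving out 1 library gave 1642 to 4565 genes lower, 199 to 883 higher and a median of -0.82 to -0.53, and 20239 to 41179 bases lower. Where this left 1 STM2457 library, it was assumed to vary like the others. Called in at least 3 libraries 5921 bases were higher, and with no filter 4874. Of named genes, JAK1 (-0.10), MAT2A (-0.38) and NUCKS1 (-0.49) reversed in the fit to the number of bases.

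Across genes, deviations from the group means of same-numbered libraries correlated at -0.013 and -0.017. The deviations of 2 STM2457 libraries mirror each other, so these values cannot tell whether shared replicate numbers paired the libraries. With the replicate block 2151 genes were lower and 285 higher, and 0 bases passed in either direction. Of the results for named genes and bases, 30 were weaker with the block and 57 stayed the same. Centred on the median, 12 were weaker and 67 the same. In the fit to the number of bases 21 were weaker and 54 the same. Losses in these 3 settings are not given gene by gene, so a named gene with no stated loss can be among them.

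The fits by region were added after seeing the data, as was a fit to genes with a strand from the promoter table only. Near starts, 343 genes were lower and 521 higher when centred, 29 and 2987 scaled to totals, 22 and 852 with sums of at least 50, 13 and 714 with the replicate block, and 10 to 48 and 585 to 1697 without 1 library. Farther away, 1815 were lower and 1892 higher when centred, 3243 and 973 scaled to totals; 253 were higher with sums of at least 50 and 301 with the replicate block, and without 1 library 3321 to 5625 were lower and 222 to 502 higher.

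The share of DMSO sites on the STM2457 list was 31.2% at combined scores of at least 50, 29.4% within 5 nt and 36.0% for sites passing in all 3 libraries. For peaks it was 78.1% among the higher-scoring DMSO peaks and 56.0% where most of a peak had to be covered.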
